A study of Mus musculus with 2 samples.

Results

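The genes described here encode the proteins of the cytosolic ribosome. They were chosen by symbol from mRNA-seq values of the tunica muscularis, that is, the muscular coat, of mouse jejunum. A gene was taken when its whole symbol followed the pattern of a cytosolic ribosomal protein gene (*Rpl* or *Rps* with a number, *Rplp* with a number, or *Rpsa*), and kinases of the *Rps6k* family and symbols of pseudogenes were left out. This gave 85 of the 18159 genes listed, with 31 core genes of the small subunit, 46 core genes of the large subunit and 8 paralogs. Paralogs here are genes whose symbol marks them as a relative of a core gene. Among them, *Rps4l* follows the pattern but is classed as a transcribed processed pseudogene in the GENCODE annotation. Of the 85 genes, 84 were above 0 FPKM in both libraries, and *Rpl10l* was listed at 0 in *Dnmt1*-WT. FPKM are fragment counts divided by transcript length and by the size of the library, so levels may be compared between genes.

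The study asked what the loss of DNMT1, the enzyme that restores DNA methylation after replication, does to smooth muscle cells of the gut. It compared *Dnmt1*-KO mice, in which Cre deletes *Dnmt1* in cells that use the *Myh11* (*smMHC*) promoter, with *Dnmt1*-WT mice, and each genotype had 1 mRNA library. Both samples were labelled as jejunal smooth muscle of mice aged 15 days on a C57BL/6 background, and both carried the same strain label, which joins the *Myh11*-driven *Cre* and *eGFP* transgene with *Dnmt1*lox/lox. By the study's methods *Dnmt1*-WT mice carry the *smMHC* Cre-eGFP transgene too, so Cre and eGFP are shared by the groups, and male and female mice were used. The labels give *Dnmt1*lox/lox for *Dnmt1*-WT as well. The free-text description of both samples names the knockout, and the *Dnmt1*-WT sample was taken as wild type from its title and its genotype label. How the RNA of the mice was combined is not given in the sources used here. *Dnmt1* itself was listed at 11.58 FPKM in *Dnmt1*-WT and 7.58 FPKM in *Dnmt1*-KO, a ratio of 0.655. The tissue also holds cells without Cre, and their part in this ratio was not tested.

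The cytosolic ribosome joins ribosomal RNA to a large set of small, mostly basic proteins. The small subunit reads the mRNA, and the large subunit forms peptide bonds and holds the tunnel through which the new chain leaves. Nearly all of these proteins are needed in equal number in each ribosome, their mRNAs rank among the most abundant of most cells, and their transcripts usually start inside a run of pyrimidines (the 5′ terminal oligopyrimidine tract) through which mTOR signalling and LARP1 control their translation.

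The start regions were searched for such pyrimidines. In RefSeq's promoters (GRCm38.p6), which held 64 of the 85 genes, the 30 bases centred on the transcript start were searched on the strand of the gene for CCTTTC and its close forms, which are CCTTTT as well as TCTTTC together with TCTTTT. At least 1 of these was present in 20 of the 64 ribosomal protein genes, or 31.2%, against 468 of all 13458 promoters of genes above 0 FPKM, or 3.48%. On either strand the shares were 32.8% and 6.08%. Among genes that held the motif and had at least 10 FPKM in *Dnmt1*-WT, the windows of the top 4 and of the bottom 4 by ratio of *Dnmt1*-KO to *Dnmt1*-WT are printed so that the starts of genes that differed little and much can be set side by side. Capitals mark the motif. The window of *Rpl38* lies at chr11:114668565-114668594 (plus strand), of *Rps27* at chr3:90213634-90213663 (minus), of *Rplp2* at chr7:141447636-141447665 (plus), of *Rpl13a* at chr7:45128731-45128760 (minus), of *Rpl13* at chr8:123102335-123102364 (plus), of *Rps6* at chr4:86857353-86857382 (minus), of *Rpl15* at chr14:18270972-18271001 (minus) and of *Rpl4* at chr9:64173372-64173401 (plus).
*Rpl38*: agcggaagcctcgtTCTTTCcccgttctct
*Rps27*: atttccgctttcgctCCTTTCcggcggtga
*Rplp2*: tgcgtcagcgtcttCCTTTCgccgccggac
*Rpl13a*: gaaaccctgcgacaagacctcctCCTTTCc
*Rpl13*: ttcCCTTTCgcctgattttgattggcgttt
*Rps6*: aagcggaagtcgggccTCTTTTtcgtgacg
*Rpl15*: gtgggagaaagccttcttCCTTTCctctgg
*Rpl4*: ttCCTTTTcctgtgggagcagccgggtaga

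The same letters stood at both ends of the order: CCTTTC was held by *Rps27*, with a ratio of 1.91, and by *Rpl15*, with a ratio of 1.04. The 19 genes with the motif and at least 10 FPKM in *Dnmt1*-WT had a median ratio of 1.40 and a range from 0.984 to 2.10, and the 42 without it a median of 1.35 and a range from 0.799 to 2.58. Of the 64 RefSeq starts, 48 lay within 50 bases of the start of the principal transcript of the gene in the GENCODE annotation. That of *Rplp2* lay 281 bases from it. Other GENCODE starts were not searched, and a gene without a match may start elsewhere. CCGGAAG, the site of ETS factors such as GABP, was found on either strand in the 300 bases around the start of 25 of the 64 genes (39.1%) and of 15.2% of all promoters. At 10 FPKM or more in *Dnmt1*-WT, the 24 genes with it had a median ratio of 1.42 and the 37 without it 1.36.

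Nearly the whole set was listed higher in *Dnmt1*-KO. Of the 84 genes above 0 FPKM in both libraries, 79 (94.0%) were higher in *Dnmt1*-KO and 5 were lower, whereas 50.3% of all 16102 genes were higher. A ratio of 1.5 or more was found for 24 of the 84 genes, beside 19.7% of all genes, and a ratio of 2 or more for 6, beside 11.8% of all genes. Without paralogs, 19 of the 77 core genes (24.7%) had a ratio of 1.5 or more and 2 had a ratio of 2 or more. No ribosomal protein gene was lower by 1.5-fold or more, beside 12.6% of all genes. The median ratio was 1.37 (0.45 on the log2 scale), with quartiles of 1.21 and 1.55, and the median of all genes was 0.01 on the log2 scale. With 1 library per genotype none of these differences has a replicate check, and they compare 2 libraries.

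Other features of the table moved with this difference, and their part in it was not tested. Length was such a feature, since short transcripts of other genes were listed higher in *Dnmt1*-KO more often than long ones, 71.6% of those of up to 600 nucleotides and 44.9% of those above 2000. For centring on length, genes were split into 10 bins by transcript length, and each log2 ratio was set against the median of its bin. Of the 84 genes, 68 stayed above that median, and their own median fell to 0.20. Those at 1.5-fold or more numbered 10 of 84, a smaller share than the 18.9% of all genes under the same centring. The bins were wide, and the same bin held *Rps27* (345 nucleotides) and *Rps2* (998). Other genes of up to 600 nucleotides had a median log2 ratio of 0.40, and those from 600 to 1000 of 0.24. The shortest genes were thus not set against genes of their own length alone. Cellular make-up was another. All 6 smooth muscle genes of the marker list (*Acta2*, *Tagln*, *Myh11*, *Des*, *Cnn1*, *Smtn*) were lower, with a summed level of 12615 FPKM in *Dnmt1*-WT and 8820 FPKM in *Dnmt1*-KO. All 4 leukocyte genes (17.7 and 49.4 FPKM), all 6 macrophage genes (131 and 476 FPKM), all 5 adipocyte genes (108 and 1166 FPKM), all 6 enterocyte genes (468 and 1026 FPKM) and all 6 genes of dividing cells (34.2 and 67.9 FPKM) were higher. Of 6 erythroid genes, which summed to 172 and 562 FPKM, 4 were higher, *Hbb-b1* was at 0 in *Dnmt1*-KO and *Hba-a1* at 0 in both. Paneth cell genes, all 3 higher and *Mmp7* at 0 in *Dnmt1*-WT, summed to 13.6 and 140 FPKM, and pancreatic acinar genes to 37.7 and 0.630 FPKM, with 5 of 6 at 0 in *Dnmt1*-KO. Enteric neuron genes, of which 4 of 5 were higher, summed to 316 and 376 FPKM, and the 2 genes of interstitial cells of Cajal, both lower, to 83.9 and 74.5 FPKM. By flow cytometry of this tissue at the same age, the study itself measured a larger share of CD45-positive (immune) cells in *Dnmt1*-KO. It also measured a smaller share of eGFP-positive cells, its smooth muscle cells, among the CD45-negative ones. In such bulk RNA, a different share of a cell type and a different amount of a transcript per cell cannot be told apart.

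The ribosomal protein genes lay at the top of the expression range in both libraries. In *Dnmt1*-WT 77 of them reached 100 FPKM and 11 reached 1000 FPKM, and in *Dnmt1*-KO 78 and 25 did. They made up 14 of the 50 genes with the highest FPKM in *Dnmt1*-WT and 21 of the 50 in *Dnmt1*-KO. Their summed level was 49853 FPKM in *Dnmt1*-WT and 71161 FPKM in *Dnmt1*-KO, a ratio of 1.43, which is 11.6% and 15.4% of all FPKM. The other 18074 genes summed to 379845 and 389684 FPKM, a ratio of 1.03. Other abundant genes had a smaller median ratio, and their levels were lower, with a median of 168 FPKM in *Dnmt1*-WT against 579.80 FPKM: of the 570 such genes with a geometric mean of 100 FPKM or more, 57.5% were higher and the median ratio was 1.05, against a median of 1.37 for the 78 ribosomal protein genes at that level, of which 74 were higher. Ratios of 2 or more were found for 24 of these other genes, up to 17.8, and for 3 of the 78. The other genes were also longer, with a median transcript length of 1619 nucleotides against 785.5 for the 78. Of the 69 other genes at that level with a coding length of up to 300 nucleotides, 53 were higher. Their median ratio was 1.16, beside 1.65 for the 9 core ribosomal protein genes of that coding length.

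**Figure D1:**
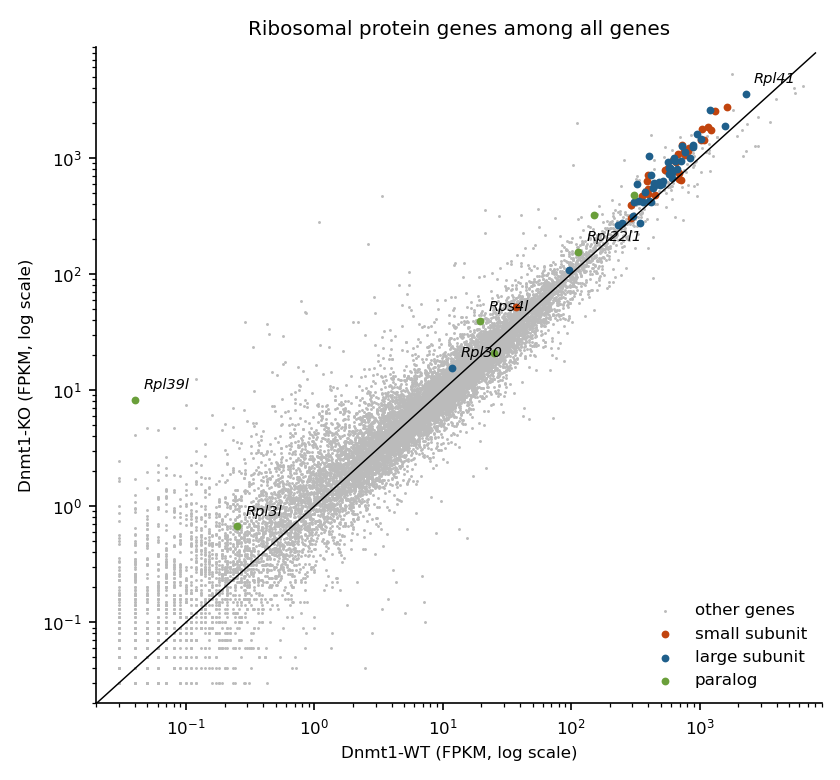
FPKM of each gene in *Dnmt1*-WT (x axis, log scale) and *Dnmt1*-KO (y axis, log scale), with small subunit genes in orange, large subunit genes in blue, paralogs in green, other genes in grey, and a line of equal level; genes at 0 in a library are not drawn. Of the 77 core genes, 73 lie above the line, nearly all of them in the upper right corner, and *Rpl39l* lies far above it at the left.

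The 5 genes with the highest mean level were all short. *Rpl41*, which encodes the smallest protein of the large subunit, with 25 residues, headed both libraries within the set at 2286 FPKM in *Dnmt1*-WT and 3573 FPKM in *Dnmt1*-KO, a ratio of 1.56. *Rps21* stood at 1642 and 2717 FPKM, a ratio of 1.65. *Rps27*, a zinc-binding protein of the small subunit, was listed at 1318 and 2521 FPKM, a ratio of 1.91. *Rpl38*, whose loss in the Tail-short mouse disturbs the pattern of the skeleton, was listed at 1216 FPKM in *Dnmt1*-WT and 2558 FPKM in *Dnmt1*-KO, a ratio of 2.10. *Rplp1*, a protein of the stalk, stood at 1584 FPKM in *Dnmt1*-WT and reached 1896 FPKM in *Dnmt1*-KO, a ratio of only 1.20. After centring on transcript length its log2 ratio was -0.014, just below 0. The order of the core genes was otherwise much the same in both libraries, with a Spearman correlation of 0.94 across the 77 genes, which share both libraries and are not independent.

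Both subunits were listed higher in *Dnmt1*-KO. Of the 31 core genes of the small subunit, 29 were higher, 10 of them by 1.5-fold or more (32.3%, beside 19.7% of all genes), with a median ratio of 1.40 and a range from 0.899 to 1.91, and their sum went from 21939 to 31842 FPKM. Of the 46 core genes of the large subunit, 44 were higher, 9 of them by 1.5-fold or more (19.6%, close to that share of all genes), with a median ratio of 1.30 and a range from 0.799 to 2.58, and their sum went from 27297 to 38300 FPKM. The ratio of the sums was 1.45 for the small and 1.40 for the large subunit.

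**Figure D2:**
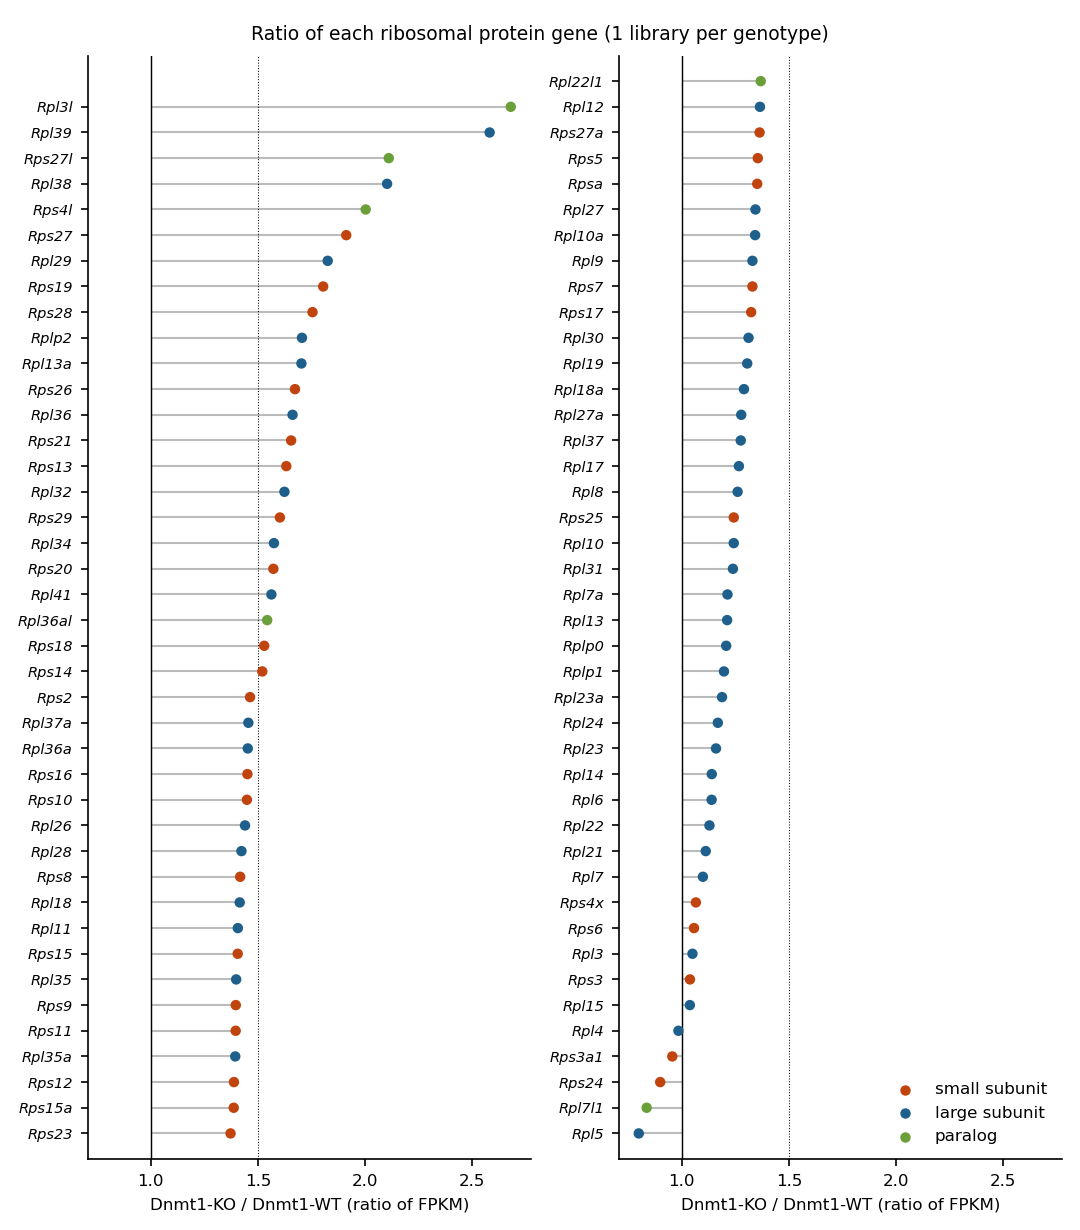
Ratio of *Dnmt1*-KO to *Dnmt1*-WT (x axis, ratio of FPKM) for 83 genes above 0 FPKM in both libraries, in order of the ratio, with small subunit genes in orange, large subunit genes in blue and paralogs in green; solid and dotted lines mark ratios of 1 and 1.5, and *Rpl39l*, with a ratio of 207, is not drawn. The genes form a gradient from *Rpl3l* at 2.68 to *Rpl5* at 0.799, and 5 genes lie left of the solid line.

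In the small subunit, the genes at the mRNA entry site had unlike ratios. *Rps2*, whose protein helps to unwind incoming mRNA, was listed at 834.84 FPKM in *Dnmt1*-WT and 1222 FPKM in *Dnmt1*-KO, a ratio of 1.46, and *Rps3*, which also works in DNA repair, at 294 and 305 FPKM, a ratio of 1.04. *Rps19*, the gene most often mutated in Diamond-Blackfan anaemia, had one of the higher ratios, 1.80, with 395 FPKM in *Dnmt1*-WT and 713 FPKM in *Dnmt1*-KO. *Rps6*, the substrate of the S6 kinases, stood at 451 and 477 FPKM, a ratio of 1.06. *Rpsa*, which encodes a ribosomal protein also known as the laminin receptor, was at 290.04 and 392 FPKM, a ratio of 1.35. *Rps27a*, which encodes a ubiquitin fused to a ribosomal protein, was at 395 and 539 FPKM, a ratio of 1.36.

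Further genes of the small subunit are given as examples. *Rps28* was listed at 737 and 1293 FPKM, a ratio of 1.75, *Rps26*, which lies where the mRNA leaves, at 1054 and 1764 FPKM, a ratio of 1.67, *Rps13* at 389 and 636 FPKM, a ratio of 1.63, and *Rps29* at 1159 and 1858 FPKM, a ratio of 1.60. Only *Rps24* and *Rps3a1* of this subunit were lower. *Rps24*, which is alternatively spliced near its 3′ end and had 3 transcript variants in each library, was listed at 721 FPKM in *Dnmt1*-WT and 648 FPKM in *Dnmt1*-KO, a ratio of 0.899. *Rps3a1*, the mouse gene for a protein at the platform of the small subunit, was at 690 and 660 FPKM, a ratio of 0.955. The scaling of the libraries bears on such small differences. Dividing each library by its FPKM sum lowered every log2 ratio by 0.10 and left 74 of the 84 genes higher, beside 43.0% of all genes. *Rps4x*, *Rps6*, *Rps3*, *Rpl3* and *Rpl15* were then below 0. Centring on the median raised the log2 ratios by 0.03 and left 80 of the 84 genes higher, beside 53.1% of all genes. *Rps24*, at -0.15 on the log2 scale, stayed below 0 under the scalings, pseudocounts and the centring on transcript length, GC content and level, and *Rps3a1*, at -0.07, under all of these except centring on GC content, where it was at 0.0042.

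In the large subunit, the stalk and the exit tunnel were each uneven. The P stalk recruits elongation factors and is formed by *Rplp0*, its base, with *Rplp1* and *Rplp2*. *Rplp0* was listed at 521 FPKM in *Dnmt1*-WT and 629 FPKM in *Dnmt1*-KO, a ratio of 1.21, close to the 1.20 of *Rplp1*, whereas *Rplp2* was at 734 and 1253 FPKM, a ratio of 1.71. Together the 3 summed to 2839 and 3777 FPKM, a ratio of 1.33. Of the proteins that line the exit tunnel, *Rpl39* had the highest ratio of all core genes, 2.58, with 405 FPKM in *Dnmt1*-WT and 1045 FPKM in *Dnmt1*-KO. *Rpl17* was at 435 and 550 FPKM, a ratio of 1.27, and *Rpl4* at 422 and 415 FPKM, a ratio of 0.984 that passed 1 with centring on the median, the upper quartile or GC content, so the 3 tunnel genes spanned nearly the range of the subunit. *Rpl39* and *Rpl17* have 17 and 46 near-identical copies in the genome, and their values are uncertain to the extent that reads were shared among these.

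The 5S RNP joins RPL5 and RPL11 to 5S ribosomal RNA, and free 5S RNP binds MDM2, the ubiquitin ligase of p53. Its members differed in direction. *Rpl5* had the lowest ratio of the set, 0.799, with 342 FPKM in *Dnmt1*-WT and 273 FPKM in *Dnmt1*-KO, and its number of transcript variants was 2 in *Dnmt1*-WT and 3 in *Dnmt1*-KO. *Rpl11* was higher, at 584 and 821 FPKM, a ratio of 1.41. Of the genes that act with this particle, *Rrs1*, an assembly factor of the 5S RNP, was at 11.1 and 15.8 FPKM and *Heatr3*, a carrier of RPL5, at 8.99 and 10.5 FPKM. *Trp53*, the gene of p53, stood at 29.3 and 37.2 FPKM, *Mdm2* at 17.2 and 15.5 FPKM and *Mdm4* at 13.4 and 9.81 FPKM, so 3 of these 5 genes were higher and none by 1.5-fold.

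Genes on the X chromosome were higher in 4 of 4 cases (*Rpl10*, *Rpl36a*, *Rpl39* and *Rps4x*), beside 94.0% of the whole set and 50.3% of all genes. Their sum had a ratio of 1.48, beside 1.43 for the whole set, and *Rpl39* carried much of it. Without *Rpl39* the sum was 1943 FPKM in *Dnmt1*-WT and 2426 FPKM in *Dnmt1*-KO. *Rps4x* was listed at 694 and 739.52 FPKM, a ratio of 1.07 that fell below 1 with the FPKM sum and with centring on transcript length or level, and *Rpl10*, which joins late in the maturation of the large subunit, at 604 and 749.68 FPKM, a ratio of 1.24.

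Short core genes had higher ratios than long ones. Across the 74 core genes with at least 100 FPKM in *Dnmt1*-WT, the Spearman correlation of the log2 ratio was -0.61 with coding length, -0.59 with transcript length, 0.45 with the GC content of the transcript, 0.39 with the level in *Dnmt1*-WT and -0.07 with the number of near-identical copies. These are correlations across genes within the same 2 libraries, and shorter genes also had higher levels, with a correlation of -0.48 between coding length and FPKM. With paralogs included, all 11 ribosomal protein genes with a coding length of up to 300 nucleotides were higher, 9 of them by 1.5-fold or more, beside 83 of 316 other genes of that length, with a median ratio of 1.75. Without paralogs, 9 of 9 were higher, 7 of them by 1.5-fold or more, with a median of 1.65. With paralogs again included, the median was 1.39 from 300 to 450 nucleotides, 1.36 from 450 to 600, 1.18 from 600 to 900 and 1.13 for the 4 genes from 900 to 1500, or 1.05 without *Rpl3l*. Other genes showed a gradient of the same direction, with medians of 1.17, 1.11, 1.07, 1.05 and 1.02 in the same classes and 0.954 above 1500 nucleotides. Of the 316 other genes of up to 300 nucleotides, 215 were higher. By transcript length, the medians were 1.53 for the 23 ribosomal protein genes of up to 600 nucleotides and 1.32 for 292 other genes, 1.36 and 1.18 from 600 to 1000, 1.21 and 1.11 from 1000 to 2000, and 1.13 and 0.960 above 2000. From the shortest to the longest of these classes, the median log2 ratio thus went from 0.61 to 0.17 in ribosomal protein genes. In other genes it went from 0.40 to -0.06, a step of like size, but the longest class held only 5 ribosomal protein genes, 3 of them higher. Among these 5 were *Rps20* and *Rps15a*, with transcripts of 3706 and 5179 nucleotides but coding lengths of only 360 and 393. By coding length, from up to 300 to 900-1500 nucleotides, the steps were unlike. They went from 0.81 to 0.17 in ribosomal protein genes and from 0.22 to 0.03 in other genes. Across other genes the Spearman correlation of the log2 ratio with coding length was -0.14, and -0.25 at a geometric mean of 100 FPKM or more.

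**Figure D3:**
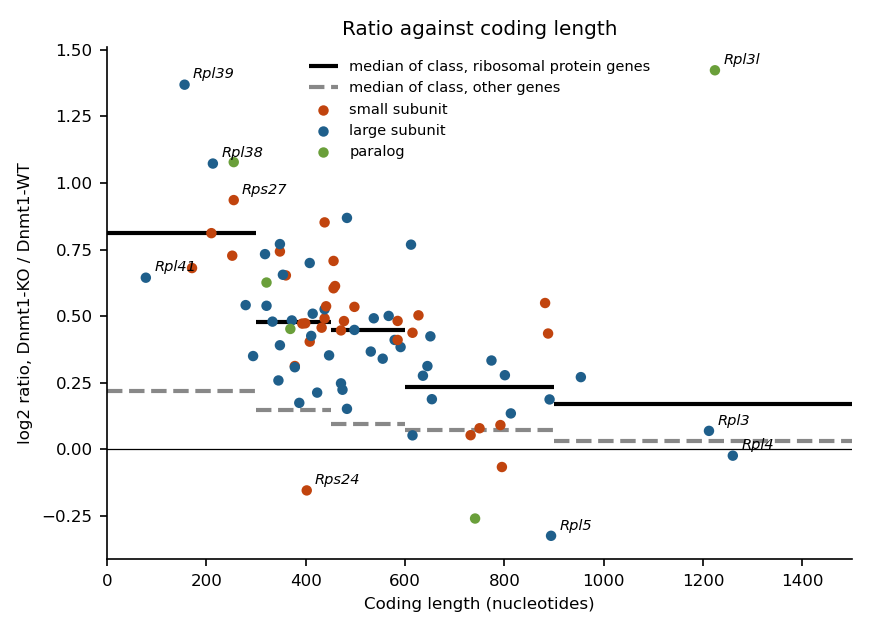
Log2 ratio of *Dnmt1*-KO to *Dnmt1*-WT (y axis) against coding length in nucleotides (x axis) for small subunit (orange), large subunit (blue) and paralog (green) genes, with the median of each length class for these genes (solid bars) and for other genes (dashed bars); *Rpl39l* lies above the axis and *Rps4l*, which has no coding length, is not drawn. The solid bars step down from a ratio of 1.75 (0.81 on the log2 scale) to 1.13 and stay above the dashed bars in every class.

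Exceptions to the order stood at both sides. *Rps24*, with a coding length of 402 nucleotides, was lower, and *Rpl29*, which has 483 nucleotides and binds heparin outside the ribosome, had a ratio of 1.83 with 328 and 599.74 FPKM. *Rpl13a*, the protein of the GAIT complex that silences inflammatory transcripts, has 612 nucleotides and a ratio of 1.70 with 421 and 716 FPKM. Among long genes near the order, *Rpl3*, which reaches to the peptidyl transferase centre and has 1212 nucleotides, was at 402 and 422 FPKM, a ratio of 1.05. *Rpl15*, with 615 nucleotides, was at 303 and 315 FPKM, a ratio of 1.04.

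Paralogs were more diverse in level than the core genes. Of the 8, 6 were higher in *Dnmt1*-KO, *Rpl7l1* was lower and *Rpl10l* was listed at 0 in *Dnmt1*-WT. Identity below is the share of identical bases between the coding sequences of paralog and core gene. *Rpl22l1*, 70.2% identical to *Rpl22*, was the only paralog above its core gene: it stood at 113 FPKM in *Dnmt1*-WT and 155 FPKM in *Dnmt1*-KO, a ratio of 1.37, and *Rpl22*, whose protein also binds mRNAs and restrains its paralog, at 96.6 and 109 FPKM, a ratio of 1.13. It thus made up 54.0% of the pair in *Dnmt1*-WT and 58.7% in *Dnmt1*-KO. *Rpl36al*, 87.9% identical to *Rpl36a*, was at 308 and 475 FPKM, a ratio of 1.54, beside 645 and 937 FPKM for *Rpl36a*, and held 32.3% and 33.6% of the pair.

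*Rps27l*, a target of p53 with 76.1% identity to *Rps27*, differed about as much as its core gene: 152 FPKM in *Dnmt1*-WT and 320.18 FPKM in *Dnmt1*-KO gave a ratio of 2.11, and its share of the pair was 10.3% and 11.3%. *Rps4l*, which GENCODE classes as a transcribed processed pseudogene, was at 19.5 and 39.1 FPKM, a ratio of 2.00, while its share beside *Rps4x* went from 2.73% to 5.02%. *Rpl7l1*, which acts in the making of ribosomes and is only 56.0% identical to *Rpl7*, was at 24.8 and 20.8 FPKM, a ratio of 0.836, beside 609.61 and 669.52 FPKM for *Rpl7*.

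The remaining 3 paralogs are known from restricted tissues and were near 0 in *Dnmt1*-WT. *Rpl39l*, a paralog best known from male germ cells, was listed at 0.0400 FPKM in *Dnmt1*-WT and 8.28 FPKM in *Dnmt1*-KO, a ratio of 207, which rests on a value near the lower end of the scale. Its log2 ratio of 7.69 became 5.90 with a pseudocount of 0.1 and 3.16 with a pseudocount of 1. Its coding sequence shares 133 of 156 bases (85.3%) with that of *Rpl39*, and its share of the pair was 0.00988% in *Dnmt1*-WT and 0.786% in *Dnmt1*-KO. *Rpl10l*, an intronless gene known from the testis with 84.8% identity to *Rpl10*, was listed at 0 and 0.180 FPKM, so no ratio is given. *Rpl3l*, the form of striated muscle with 74.2% identity to *Rpl3*, was at 0.250 and 0.670 FPKM, a ratio of 2.68 between values near 0. Hence *Rpl39l* was the only one of these 3 that reached 1 FPKM in *Dnmt1*-KO.

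The stretches upstream of *Rpl39l* and *Rpl10l* are shown because these paralogs are known from germ cells, were at or near 0 in *Dnmt1*-WT and hold CG dinucleotides, on which DNMT1 acts and which are in capitals. Each is the 100 bases before the RefSeq start (GRCm38.p6), at chr16:10170128-10170227 (plus strand) for *Rpl39l* and chr12:66284402-66284501 (minus strand) for *Rpl10l*. They hold 8 and 2 CG dinucleotides, and the 300 bases around the start hold 17 and 13. The third paralog near 0, *Rpl3l*, has 2 in its 300 bases, where the median of the 64 ribosomal protein promoters was 21 and that of all promoters 18. Methylation of these stretches was not analysed here.
*Rpl39l*: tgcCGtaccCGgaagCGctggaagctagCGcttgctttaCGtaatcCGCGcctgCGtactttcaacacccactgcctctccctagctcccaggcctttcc
*Rpl10l*: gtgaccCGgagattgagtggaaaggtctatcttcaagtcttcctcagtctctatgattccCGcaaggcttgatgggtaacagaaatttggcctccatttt

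**Figure D4:**
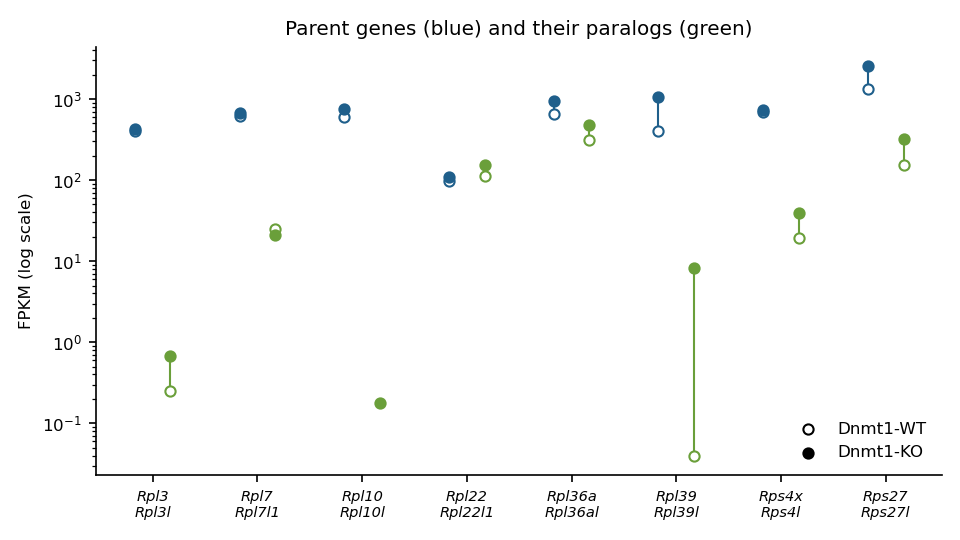
FPKM (y axis, log scale) of 8 core genes (blue) and their paralogs (green) in *Dnmt1*-WT (open circles) and *Dnmt1*-KO (filled circles), with a line between the libraries; *Rpl10l* in *Dnmt1*-WT is at 0 and not drawn. Only *Rpl22l1* lies above its core gene, and the longest line is that of *Rpl39l*, from 0.0400 to 8.28 FPKM.

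Many of these genes have copies from which their reads are hard to separate. A search of GENCODE transcripts with each coding sequence found 971 copies with at least 90% identity over at least 90% of its length, of which 936 were processed pseudogenes. *Rpl21* had 75, *Rpl7a* 73, *Rpl29* 56, *Rpl17* 46 and *Rps2* 41. Of the 35 genes with 10 or more copies, 34 were higher in *Dnmt1*-KO with a median ratio of 1.34, and of the 48 with fewer, 44 were higher with a median of 1.40. The lowest core genes were *Rpl30*, with 16 copies, at 11.9 and 15.6 FPKM and *Rps15a*, with 12, at 37.5 and 52.0 FPKM. The table listed 6 pseudogenes by name, the highest of them *Rplp2-ps1* at 17.9 FPKM in *Dnmt1*-WT and 11.4 FPKM in *Dnmt1*-KO, and *Rps15a-ps6* at 5.43 and 12.7 FPKM. In all, 82 of the 85 genes had the same number of transcript variants in both libraries, the others being *Rpl5*, *Rpl22* (5 and 4) and *Rpl10l* (0 and 1).

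Of ribosomal genes whose symbols fall outside the rule, 2 were examined, and both were higher. *Fau*, which encodes a small subunit protein fused to a ubiquitin-like one, was at 602 FPKM in *Dnmt1*-WT and 930.43 FPKM in *Dnmt1*-KO, a ratio of 1.55. *Gnb2l1*, the gene of RACK1, a scaffold on the small subunit, was at 366 and 445 FPKM, a ratio of 1.21.

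Other gene groups of translation and of mitochondria had medians near 1. Of 77 genes of mitochondrial ribosomal proteins, 42 were higher, 2 of them by 1.5-fold or more, 1 was lower by that fold, and the median ratio was 1.02, with *Mrpl1* lowest at 0.584 and *Mrps10* highest at 1.80. Of 52 translation factor genes, 28 were higher and none by 1.5-fold, 2 were lower by 1.5-fold or more (*Eif4g2* at 0.650 and *Eif4a2* at 0.654), and the median was 1.01, with *Eif2b2* highest at 1.43. *Eef1a1*, the elongation factor that brings tRNA to the ribosome and whose mRNA has the same kind of start, was listed at 2347 FPKM in *Dnmt1*-WT and 1940 FPKM in *Dnmt1*-KO, a ratio of 0.826, and *Tpt1*, with a start of that kind too, at 1369 and 1516 FPKM, a ratio of 1.11. *Eef2* was at 588 and 566 FPKM, a ratio of 0.962. Of 78 genes of the respiratory chain 35 were higher and none differed by 1.5-fold in either direction, with a median of 0.976, between *Atp5b* at 0.711 and *Ndufa3* at 1.44.

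**Figure D5:**
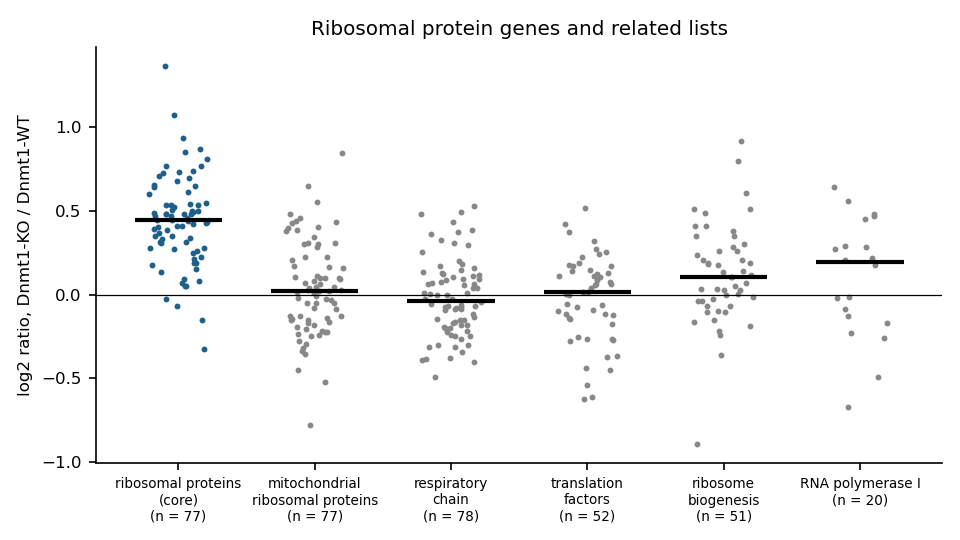
Log2 ratio of *Dnmt1*-KO to *Dnmt1*-WT (y axis) for the 77 core ribosomal protein genes (blue) and for genes of 5 related lists (grey), with 1 point per gene and a bar at the median of each list. The bar of the ribosomal protein genes is at 0.45, and those of the other lists lie between -0.04 and 0.19.

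Genes that make and control ribosomes varied in both directions. Of 51 genes of ribosome biogenesis, 34 were higher, 3 of them by 1.5-fold or more, with a median ratio of 1.08. The 3 were *Eif6*, which keeps the new large subunit from joining early (82.7 and 156 FPKM, a ratio of 1.89), *Bop1*, a processing factor of the large subunit (10.7 and 18.6 FPKM, 1.74), and *Nhp2*, of the H/ACA particle (16.1 and 24.5 FPKM, 1.53). *Npm1* (169 and 164 FPKM) and *Ncl* (52.9 and 54.0 FPKM), the abundant nucleolar proteins, had ratios of 0.975 and 1.02, and *Dimt1*, an 18S rRNA methyltransferase, the lowest of the list, 0.539. Of 20 genes of RNA polymerase I and its factors, which transcribe ribosomal RNA, 11 were higher and 9 lower. The higher ones included *Polr2e*, *Polr2f*, *Polr2h*, *Polr2k* and *Polr2l*, which carry symbols of RNA polymerase II subunits, with ratios from 1.15 to 1.47. The median of the list was 1.14, between *Taf1a* at 0.629 and *Taf1c* at 1.56. On the log2 scale that median was 0.19, and it was -0.020 after centring on transcript length.

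Genes of the lists of regulators, whose transcripts are mostly long, were mostly lower. Of 13 genes that control the translation of ribosomal protein mRNAs, 2 were higher and the median ratio was 0.831, with *Tial1* lowest at 0.661. On the log2 scale that median was -0.27, and it was -0.045 after centring on transcript length and -0.14 after centring on GC content. *Mtor* was at 11.4 FPKM in *Dnmt1*-WT and 9.44 FPKM in *Dnmt1*-KO, *Larp1* at 23.7 and 22.6 FPKM and *Rps6kb1*, an S6 kinase, at 6.87 and 5.19 FPKM, while *Eif4ebp1*, a repressor of cap-dependent translation, was at 50.2 and 65.2 FPKM, a ratio of 1.30. Of 7 listed genes of factors that bind ribosomal protein promoters or start sites, 2 were higher, *Myc* (7.67 and 9.40 FPKM) and *Tbp* (9.31 and 9.87 FPKM), and the median was 0.709, or -0.50 on the log2 scale, with -0.30 after centring on transcript length and -0.24 after centring on GC content. *Yy1*, at 31.6 and 21.1 FPKM, had the lowest ratio, 0.670, and *Gabpa* stood at 14.4 and 9.75 FPKM, a ratio of 0.678.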

How the data were processed

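RNA of the jejunal tunica muscularis was isolated with a mirVana kit, and libraries were made with TruSeq RNA reagents. The submitters' processing notes name TopHat 1.4.1, Cufflinks 2.0.2 and mm10 (GRCm38). The authors deposited 1 table of FPKM per gene for 1 library per genotype, with counts of transcript variants per library and their own ratio, which was not used. No column of values lacked a sample. The table gives no read counts per gene, and the read totals that the study states for the libraries, which differ, were not used here, so no interval is given.

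Ratios are plain ratios of the deposited FPKM, *Dnmt1*-KO over *Dnmt1*-WT, without rescaling, over genes above 0 FPKM in both libraries. Folds of 1.5 and 2 describe size only. Gene models, lengths and coding sequences came from GENCODE release M21, in which all 85 symbols were found and 84 had a coding sequence, and promoters from RefSeq (250 bases before to 50 after a start). Copies were sought with BLAST 2.17.0. Values were named in full for the 5 highest levels, the 5 highest and 5 lowest ratios at 10 FPKM or more, paralogs, genes at 0 in 1 library, set structural groups and the extremes of related lists. *Rpl29*, *Rpl13a*, *Rpl3*, *Rpl15*, *Rps13*, *Rps26*, *Rps28*, *Rps29* and further genes of related lists were added as examples after their values were seen. An item of a related list is not reported here. Members and lists were chosen with earlier results of these data known. The alternatives were scaling, pseudocounts of 1 and 0.1, filters, and centring on length, GC content and level. Counting and centring were tested on simulated data with Python 3.11.15, numpy 2.4.6, pandas 2.3.3 and scipy 1.17.1.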

Additional observations from a re-analysis of the deposited data

How the results depend on the processing

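No paired analysis was possible because each genotype has 1 library. Apart from settings that count fewer genes or use another fold, the cause of the changes below was not tested. The share of ribosomal protein genes higher in *Dnmt1*-KO was 81.0% after centring on transcript length and between 88.1% and 96.4% under the other settings. For all genes it lay between 43.0% and 53.1% under the scalings, pseudocounts and centrings. Their median log2 ratio, 0.45, became 0.35 after division by the FPKM sum, 0.20 after centring on transcript length, 0.36 after centring on level and 0.31 after centring on coding length. Of the 84 genes, 24 (28.6%) were at 1.5-fold or more. This count became 10 with transcript length and 11 of 83 with coding length, smaller shares than the 18.9% and 18.7% of all genes under these settings. It was 17 with the FPKM sum and 17 with centring on level, beside 17.2% and 17.8% of all genes. Among the 48 genes with fewer than 10 near-identical copies it was 15 (31.2%). At 2-fold it was 6, beside 11.8% of all genes. A level of 125% of that in *Dnmt1*-WT was reached by 59, for which no share of all genes is given. Coding length and copies were added after seeing the data. The ratio of the sums, 1.43, was 1.46 with median centring, 1.33 with the FPKM sum, 1.39 with the FPKM sum without these genes and 1.46 with the upper quartile.

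Of the related lists, mitochondrial ribosomal proteins (0.02) had medians of -0.078 with the FPKM sum, -0.13 with transcript length and -0.063 with GC centring. The respiratory chain (-0.04) had -0.14, -0.25 and, with level, -0.13. Ribosome biogenesis (0.11) had 0.00431 with the FPKM sum and 0.00994 with transcript length. The regulators of transcription (-0.50) had -0.60 with the FPKM sum, -0.30 with transcript length and -0.24 with GC centring. The regulators of translation (-0.27) had -0.37, -0.045 and -0.14, and RNA polymerase I (0.19) had 0.092, -0.020 and 0.11. Translation factors (0.02) lay between -0.083 and 0.047. Leukocyte genes (1.63) had 1.12 with a pseudocount of 1. Of 297 values of 33 single genes, 284 kept their side of 1.5-fold, 11 dropped below it, 2 passed it and 0 that lay past it changed sign. Read counts per gene are not in the table, which limits most the genes under 1 FPKM.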
